A study of Homo sapiens with 8 samples.

Results

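The data described here are the messenger RNA levels of 10 integrin receptor subunit genes in the human neuroblastoma line SH-SY5Y. They are ITGA1, ITGA2, ITGA3, ITGA4, ITGA5, ITGA6, ITGA7, ITGA9, ITGAV and ITGB1. The genes were chosen by symbol, and each matched 1 of the 47591 entries of the deposited gene table. RNA sequencing was carried out on 8 libraries of 3 lines. The G2 line (n = 3) carried CRISPR/Cas9 with a guide against PRPF40B, a splicing factor gene, the SCR line (n = 3) carried CRISPR/Cas9 with a scramble guide, and the WT line (n = 2) was not edited. Edited cells were selected with puromycin and grown as colonies from limiting dilution, so a line may descend from 1 cell, and the effect of the guide and a difference between colonies cannot be told apart. The study's methods list SCR and G2, but not WT, among the lines cultured with puromycin. Any effect of the drug cannot be told apart from other differences between these lines and WT. The labels name the libraries of a line as biological replicates and say nothing more of their origin, so p-values measure the spread between these libraries.

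Integrins are cell surface receptors made of 1 alpha and 1 beta chain. They bind proteins of the extracellular matrix or of other cells on the outside and connect to the actin cytoskeleton through talin, kindlin and their partners on the inside. The alpha chain largely sets which ligand is bound, and the beta1 chain encoded by ITGB1 is shared by most of the alpha chains described here.

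Totals of recovered counts were between 59804395 and 81080747 per library. PRPF40B, the targeted gene, had 840, 841 and 918 normalized counts in G2, 1686, 1672 and 1669 in SCR, and 1972 and 1668 in WT, and fell by 0.95 on the log2 scale against SCR and by 1.07 against WT. Markers of noradrenergic neuroblastoma were present in every line, although TH, the enzyme that starts catecholamine synthesis, stayed between 0 and 26.5 normalized counts. Ribosomal RNA genes took 0.384% to 0.587% of the counts in G2 and SCR and 4.96% and 4.75% in WT.

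All 10 integrin genes were called higher in G2 than in SCR, by 0.69 to 4.07 on the log2 scale. Against WT, 8 of them were called higher in G2, by 0.69 to 5.92. ITGA1 was at 0.51 and ITGA9 at -0.21 against WT, neither called. A gene was called changed where limma gave a 1.5-fold difference or more with an unadjusted p no larger than 0.05. By that rule 26.9% of the 18947 genes tested were called in G2/SCR, 15.1% as higher in G2 and 11.8% as lower. For G2/WT the share called was 29.9%, made up of 17.7% higher and 12.2% lower. The median log2 fold change of the 10 genes was 2.52 in both comparisons, against -0.01 and 0.00 over all genes tested. These comparisons share the G2 libraries. In SCR/WT 16.3% of genes were called, 10.7% higher and 5.63% lower in SCR. Of the integrin genes, ITGA2, ITGA3, ITGA5, ITGA6 and ITGA7 were higher in SCR and ITGA4 and ITGA9 were lower. All 10 genes passed the filter on low values (mean normalized count of 10 or more). The G2 libraries lay above all 5 control libraries for 9 of the 10 genes, as they did for 22.8% of the genes tested. In bulk RNA, more cells of a type and more RNA per cell cannot be told apart.

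**Figure D1:**
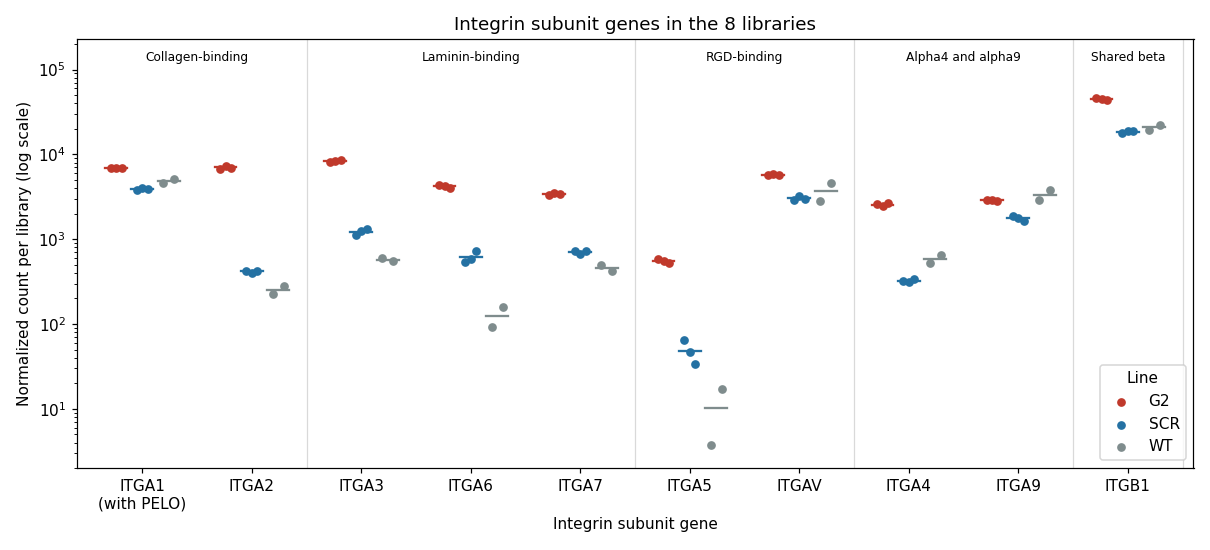
Normalized count of each integrin gene (log axis) in every library of G2, SCR and WT. Points are libraries and short lines are group means. For every gene other than ITGA9, the 3 G2 points lie above all 5 control points.

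The first group binds collagen. ITGA1 (chr5:52787916-52959209, hg38), the alpha1 chain, shares its table entry with PELO, which lies within it, so their reads cannot be separated. This entry had 6814, 6896 and 6906 normalized counts in G2, 3842, 4062 and 3928 in SCR, and 4567 and 5087 in WT. G2 lay above both controls and the 3 lines did not overlap. The entry was higher in G2 than in SCR by 0.80 (SE 0.06, limma with Benjamini-Hochberg adjustment, adjusted p = 2.1e-07). Against WT the log2 fold change was 0.51 (SE 0.06), short of the fold threshold. It passed that threshold without WT replicate 2, at 0.59, and with all libraries scaled to the same total, at 0.70, or at 0.63 where ribosomal RNA genes were left out of the total.

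ITGA2 (chr5:52989337-53094779), the alpha2 chain, starts 30128 bases beyond the end of the ITGA1 entry. It had 6811, 7296 and 6962 normalized counts in G2, 423, 400 and 426 in SCR, and 227 and 283 in WT. The G2 libraries stood far apart from every control library. The difference was 4.07 against SCR (SE 0.09, limma, adjusted p = 1.4e-11) and 4.79 against WT (SE 0.10, adjusted p = 5.3e-12). ITGA2 was thus the member with the largest log2 fold change in G2/SCR, and 145 of the 18947 genes tested had a higher one. SCR exceeded WT by 0.71 (SE 0.10), a call that was lost without WT replicate 1, at 0.55.

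The second group binds laminin. ITGA3 (chr17:50055966-50090482), the alpha3 chain, had 8099, 8345 and 8465 normalized counts in G2, 1110, 1256 and 1301 in SCR, and 594 and 553 in WT. The lines did not overlap and ran from G2 down to WT. Log2 fold changes were 2.77 in G2/SCR (SE 0.07, limma, adjusted p = 4.8e-11), 3.85 in G2/WT (SE 0.08, adjusted p = 6.4e-12) and 1.09 in SCR/WT (SE 0.08).

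ITGA6 (chr2:172427336-172506459), the alpha6 chain, had 4349, 4233 and 4049 normalized counts in G2, 537, 582 and 719 in SCR, and 91.9 and 157 in WT. Its order of lines was that of ITGA3, with WT further below SCR. In G2/SCR it differed by 2.79 on the log2 scale (SE 0.16, limma, adjusted p = 4.4e-08), in G2/WT by 5.12 (SE 0.18, adjusted p = 6.5e-10) and in SCR/WT by 2.33 (SE 0.18).

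ITGA7 (chr12:55684568-55712408), the alpha7 chain, had 3344, 3469 and 3449 normalized counts in G2, 732, 663 and 723 in SCR, and 493 and 420 in WT. The same order held, with SCR and WT closer together. G2 exceeded SCR by 2.28 (SE 0.08, limma, adjusted p = 4.1e-10) and WT by 2.91 (SE 0.09, adjusted p = 1.6e-10), and SCR exceeded WT by 0.63 (SE 0.09), on the log2 scale. The SCR/WT call was lost without WT replicate 2, at 0.52.

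The third group recognises the short RGD motif of its ligands. ITGA5 (chr12:54395261-54419266), the alpha5 chain of the fibronectin receptor, had 589, 555 and 522 normalized counts in G2, 64.3, 46.9 and 34.0 in SCR, and 3.72 and 16.9 in WT. The lines did not overlap, and the WT values were close to 0. G2 was higher than SCR by 3.54 (SE 0.40, limma, adjusted p = 1.3e-05) and than WT by 5.92 (SE 0.44, adjusted p = 4.2e-07), and SCR was higher than WT by 2.38 (SE 0.44). The WT values rest on 3 and 17 recovered counts, and a recovered count may not be 1 read, since 66.9% to 71.3% of small counts per library were multiples of 3. Without WT replicate 1 the G2/WT and SCR/WT values were 4.96 and 1.42, and without WT replicate 2 they were 6.88 and 3.34.

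ITGAV (chr2:186590056-186680901), the alphaV chain, had 5769, 5833 and 5673 normalized counts in G2, 2858, 3272 and 3002 in SCR, and 2787 and 4554 in WT. G2 was above all control libraries, whereas the WT libraries lay on either side of SCR. Log2 differences of G2 were 0.92 from SCR (SE 0.13, limma, adjusted p = 1.2e-04) and 0.69 from WT (SE 0.15, adjusted p = 0.002). The G2/WT call was lost without WT replicate 1, at 0.34.

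The alpha4 and alpha9 chains form a further group, which binds tenascin C, VCAM1 and related ligands. ITGA4 (chr2:181457202-181538940) had 2587, 2459 and 2636 normalized counts in G2, 317, 310 and 337 in SCR, and 523 and 656 in WT. G2 was highest and SCR was lowest. ITGA4 was higher in G2 than in SCR by 2.99 (SE 0.09, limma, adjusted p = 1.8e-10) and than in WT by 2.13 (SE 0.10, adjusted p = 8.5e-09). Between the controls the log2 value was -0.86 (SE 0.10). Of all genes tested, 0.691% were called in all 3 comparisons in this order.

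ITGA9 (chr3:37452115-37823512) had 2889, 2913 and 2784 normalized counts in G2, 1885, 1790 and 1657 in SCR, and 2869 and 3819 in WT. G2 exceeded SCR but overlapped with WT, the only overlap between G2 and a control line among the 10 genes. It was higher in G2 than in SCR by 0.69 (SE 0.09, limma, adjusted p = 7.0e-05) and lower in SCR than in WT, at -0.90 (SE 0.10). In G2/WT it was -0.21 (95% confidence interval -0.44 to 0.02, limma, adjusted p = 0.11). The antisense gene ITGA9-AS1 had 236, 168 and 146 normalized counts in G2 and 116, 129 and 101 in SCR, a log2 fold change of 0.64 (limma, adjusted p = 0.034). This call was lost without G2 replicate 1, at 0.44, without SCR replicate 3, at 0.55, and under scaling to the same total, at 0.55. ITGA6-AS1 had at most 6.57 normalized counts in any library.

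ITGB1 (chr10:32900318-32958230), the shared beta1 chain, had 46557, 44595 and 43742 normalized counts in G2, 17851, 18983 and 18748 in SCR, and 19606 and 22300 in WT. G2 was above both controls, and the SCR libraries were just below those of WT. The difference was 1.28 from SCR (SE 0.06, limma, adjusted p = 3.9e-09) and 1.10 from WT (SE 0.06, adjusted p = 4.3e-08). SCR and WT differed by -0.18 (SE 0.06, limma, adjusted p = 0.052), which was not called. The sign of the SCR/WT values of ITGB1 and ITGAV turned when libraries were scaled to the same total.

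**Figure D2:**
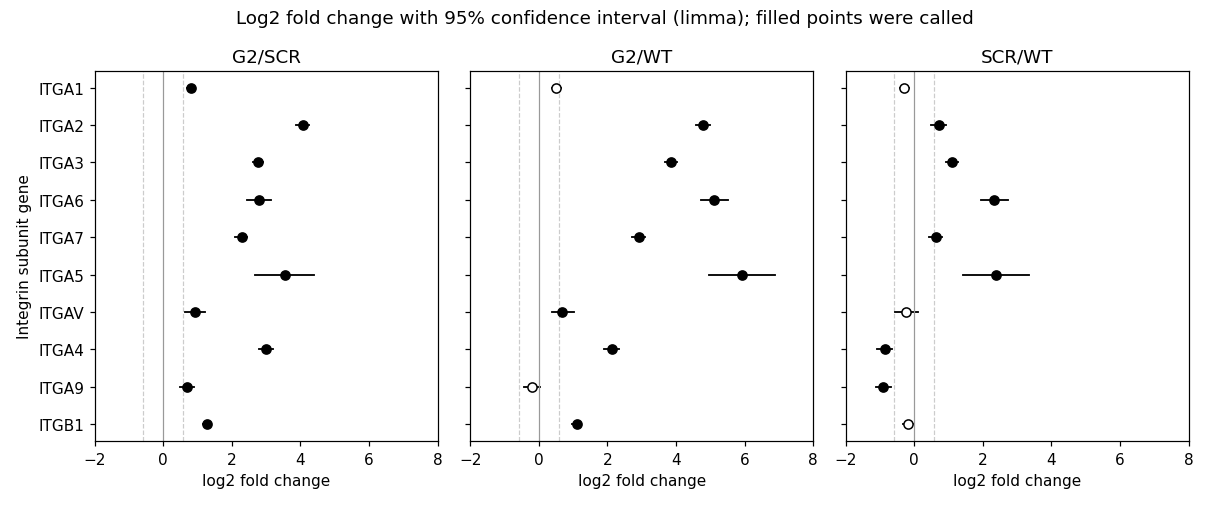
Log2 fold change with its 95% confidence interval for each integrin gene in G2/SCR, G2/WT and SCR/WT, from limma. Filled points were called, dashed lines mark a fold change of 1.5, and only ITGA1 and ITGA9 are open in G2/WT.

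The design allows genes to be picked that were called in G2 against both controls in 1 direction and not between the controls. ITGAV and ITGB1 met this rule, against 13.8% of all genes tested and 8.13% that met it and were higher in G2. ITGA2, ITGA3, ITGA5, ITGA6 and ITGA7 were called in all 3 comparisons and descended from G2 to SCR to WT, as did 2.44% of the genes tested. The number and the genes that met the rule depended on the setting. At a fold change of at least 2 the number was 4, with ITGA2, ITGA4 and ITGA7 in and ITGAV out. Without WT replicate 2 it was also 4, with ITGA1 and ITGA7 added. Scaled to the same total it was 3, with ITGA1 added. Without WT replicate 1 it stayed at 2, with ITGA2 in place of ITGAV.

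Levels per kb of merged exon, which put the genes on 1 scale, gave ITGB1 as the highest in every line, at 3088 ± 99.1 normalized counts per kb in G2 (SD, n = 3), 1272 ± 41.0 in SCR (SD, n = 3) and 1439 ± 131 in WT (SD, n = 2). In G2 the leading alpha chains were ITGA2 at 889 ± 31.4 and ITGA3 at 847 ± 19.0, whose libraries overlapped, followed by ITGA6 at 630 ± 22.6. In SCR the leading alpha chain by this length was ITGA9 at 215 ± 13.8, followed by ITGA1 (entry shared with PELO) at 176 ± 4.93. ITGA9 also led in WT, at 404 ± 81.2, and the next 2, ITGA1 and ITGAV, overlapped with each other. ITGA5 was last in each line, at 75.2, 6.56 and 1.40. The order depends on the length used. With the longest transcript in place of merged exons, ITGA3 at 1515 led ITGA2 at 895 in G2. ITGA9 then no longer led in the controls: in SCR it was at 226, below ITGAV at 383 and ITGA1 at 367, and in WT it was at 426, with ITGAV at 462 and ITGA1 at 450 overlapping each other and ITGA1 overlapping ITGA9.

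As shares of the summed alpha level per kb, the laminin-binding chains held 46.2% ± 0.210 in G2, 31.5% ± 2.14 in SCR and 12.6% ± 2.33 in WT (SD, n = 3, 3 and 2). The joint share of the alpha4 and alpha9 chains ran the other way, at 14.6% ± 0.252, 26.3% ± 1.79 and 44.7% ± 1.13. This order was that of ITGA9, at 8.63%, 23.1% and 39.3%. The ITGA4 share did not follow it, being highest in G2 and lowest in SCR, at 3.24% in SCR. Within the collagen-binding chains, the share of ITGA2 was 22.2% in G2 against 5.66% in SCR and 3.15% in WT. That of the ITGA1 entry, which also holds PELO reads, was 7.65%, 18.9% and 21.2%. With the longest transcript the ITGA2 shares were lower, at 14.5%, 3.35% and 1.92%, and the laminin-binding shares were 49.6%, 31.5% and 14.2%. The joint alpha4 and alpha9 share was then 12%, 17.3% and 30.2%. The ranges of the libraries did not overlap between lines for the laminin-binding share. The alpha total divided by ITGB1 was 1.30 ± 0.0467 in G2, 0.733 ± 0.0117 in SCR and 0.710 ± 0.0575 in WT, so the summed alpha transcripts differed between G2 and the controls by more than ITGB1 did. With the longest transcript it was 0.772, 0.480 and 0.452.

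**Figure D3:**
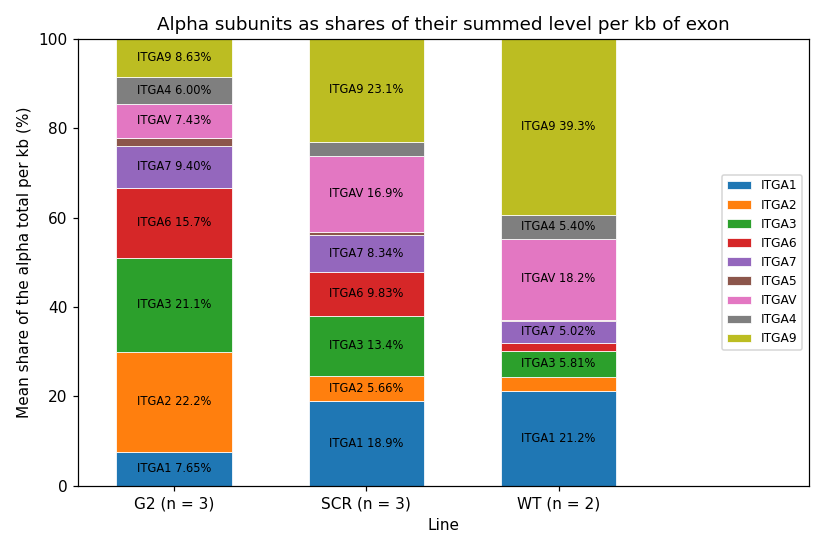
Mean share (%) of each alpha chain in the summed alpha level per kb of merged exon in G2 (n = 3), SCR (n = 3) and WT (n = 2). ITGA2 and ITGA3 make up the largest blocks in G2 (22.2% and 21.1%), and ITGA9 the largest in WT (39.3%). With the longest transcript the WT shares of ITGAV, ITGA1 and ITGA9 were 26.8%, 26.7% and 25.0%. The ITGA1 block includes PELO.

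Of the 16 other human integrin genes 9 passed the filter on low values. Against each control, 4 of them were higher in G2, where 15.1% (G2/SCR) and 17.7% (G2/WT) of all genes tested were. ITGB3, a beta chain that pairs with alphaV, had 173, 257 and 260 normalized counts in G2, 28.6, 26.3 and 41.6 in SCR, and 54.6 and 35.7 in WT, and was higher in G2 by 2.81 and 2.33. ITGA10, ITGA11 and ITGB8, which are named because they were called and not by the rule for named genes, had log2 fold changes of 0.86, 3.91 and 2.36 in G2/SCR. For ITGA10 the adjusted p was 0.077 in limma, and its call was lost without any 1 of the G2 libraries, without SCR replicate 2 and without SCR replicate 3, at 0.50 to 0.92. In G2/WT the call of ITGA10 was lost without WT replicate 1, at 0.90. ITGB5, another partner of alphaV, had 945 to 1074 in G2 and 1096 to 1190 in SCR, with log2 fold changes of -0.19 and -0.57, neither called. ITGAE was at 0.33 and -0.12 and ITGB4 at 0.53 and 0.50, again without a call. ITGA2B, the platelet alpha chain, was lower in G2 than in WT by a log2 fold change of -0.80. ITGA2B and ITGA11 were lower in SCR than in WT, at -0.71 and -1.42. The first of these calls was lost without WT replicate 1, at -0.54, and the second without SCR replicate 1, at -1.0, and without WT replicate 2, at -1.13.

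Genes for integrin ligands were mostly higher in G2. Of 37 listed ligand genes 28 were tested. Against either control, 26 were called higher and 1 lower, but the 26 were not the same set. LAMA5 was among them only against SCR, and LAMC3 only against WT. Of the collagens, COL3A1 had 41085, 41625 and 40156 normalized counts in G2, 3242, 3410 and 3390 in SCR, and 248 and 258 in WT, log2 fold changes of 3.61 and 7.33. COL5A1 was higher by 3.39 and 5.65, and COL1A1, a chain of type I collagen and also a fibroblast marker, by 2.60 and 2.86. All 9 tested collagen genes were higher in both comparisons.

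Of 10 tested laminin chains, 8 were higher in each G2 comparison. LAMA5 was called only in G2/SCR, at 0.91, and was at 0.27 in G2/WT. LAMC3 was called only in G2/WT, at 1.48, and was at 0.02 in G2/SCR. LAMC1, the gamma1 chain found in most laminins, was higher by 1.02 and 1.03, and LAMB1, the beta1 chain, by 0.70 and 0.63. The G2/WT call of LAMB1 was lost without WT replicate 1, at 0.57. LAMA4, the alpha4 laminin chain, was lower in both, with 135, 171 and 113 normalized counts in G2, 545, 572 and 502 in SCR, and 247 and 269 in WT. All 6 tested RGD ligands were higher, among them TGFB1, whose latent peptide binds alphaV integrins, by 4.17 and 3.49, CCN1 by 2.88 and 4.38, and FBN1, the microfibril protein fibrillin, by 2.37 and 2.71. FN1, the main ligand of alpha5beta1, was listed at 0 in 7 libraries and at 2.27 in SCR replicate 3, and CCN2 and POSTN were listed at 0 in all 8. Of the alpha4 and alpha9 ligands, TNC (tenascin C) was higher by 3.13 and 2.85, EMILIN1 by 1.23 and 0.78 and SVEP1 by 2.41 and 5.89. The G2/WT value of SVEP1 was 7.03 without WT replicate 1 and 4.75 without WT replicate 2.

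Partners inside the cell and in its membrane differed among themselves. Of 53 tested, 24 were higher and 2 lower in G2/SCR, with a median log2 fold change of 0.54, and 21 were higher and 3 lower in G2/WT, with a median of 0.43. Among the actin linkers, VCL (vinculin) was higher by 1.67 and 2.16, ZYX (zyxin) by 1.98 and 1.92, and ILK, the integrin-linked kinase, by 0.99 and 0.77. TLN1, the main talin, had log2 fold changes of 0.54 and 0.40, under the fold threshold, while RAP1A, a small GTPase that promotes talin recruitment, was higher by 1.34 and 1.30 and FERMT3, the blood cell kindlin, by 2.42 and 1.73. The kindlins differed among themselves. FERMT3 averaged only 92.9 normalized counts in G2. FERMT2, which averaged 16285 there, had 0.34 and 0.43 and was not called. FERMT1 was lower in G2/SCR, at -1.34, and not called in G2/WT, at -0.57. Of the genes listed as inhibitors, TNS2 was higher by 2.49 and 1.60, FLNC by 1.60 and 1.69 and FLNA, filamin A, which competes with talin for the beta tail, by 1.09 and 0.87.

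Of 14 tested adhesion signalling genes, 2 were higher and 1 lower in G2/SCR, and 11 were not called. Over all genes tested, 26.9% were called in that comparison. SRC, the tyrosine kinase of focal adhesions, had 2090, 2156 and 2124 normalized counts in G2, 3937, 3442 and 3952 in SCR, and 4561 and 4870 in WT, and was lower in G2. DOCK1, an activator of RAC, was higher by 0.89 and 0.70, the latter call being lost without WT replicate 1, at 0.56. ARHGEF7 had -0.39 and -0.25 without a call. Of the membrane partners, CD9 was higher by 2.42 and 2.40 and CD151, a tetraspanin bound to laminin-binding integrins, by 1.83 and 1.37. CD63 was higher in G2/SCR by 1.44, and its value in G2/WT was 0.51, not called.

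**Figure D4:**
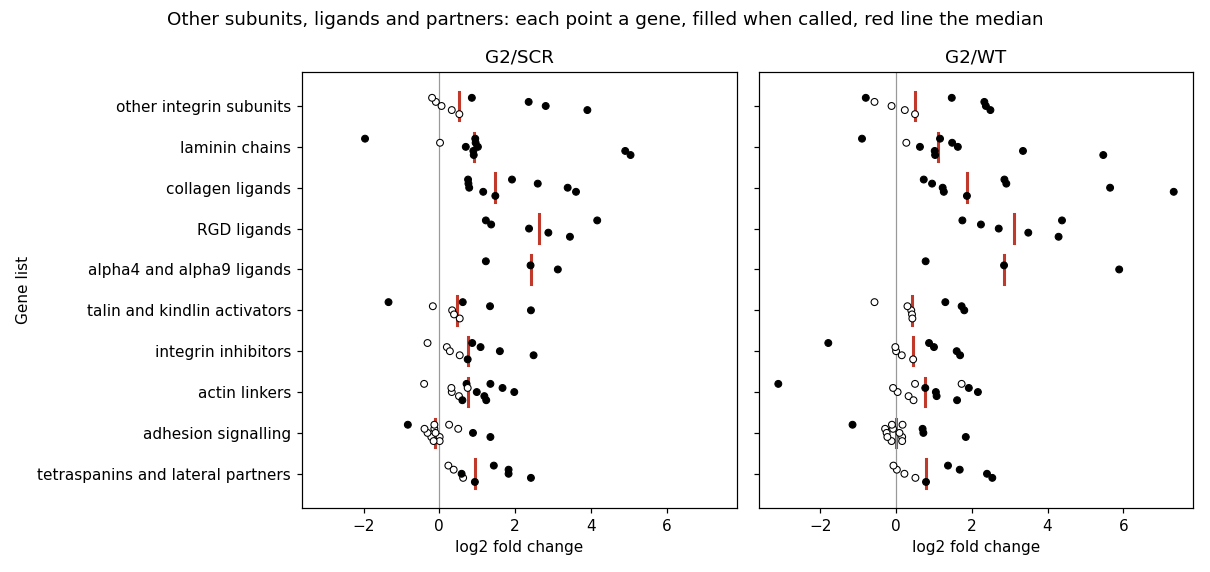
Log2 fold change of the tested genes of 10 lists in G2/SCR and G2/WT. Each point is a gene, filled when called, and the red line is the list's median. In both panels every tested gene of the collagen, RGD and alpha4/alpha9 ligand lists is filled and right of 0.

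Markers of fibroblasts and of noradrenergic neuroblastoma differed between G2 and the controls. The 7 fibroblast markers summed to between 88344 and 89387 normalized counts in G2, 24249 to 24753 in SCR and 24982 to 26560 in WT, and 5 of 7 were higher in both G2 comparisons. Most of the G2 sum came from DCN and THY1, with means of 37183 and 35983. In the controls most of the sum came from THY1 alone, with means of 17501 in SCR and 20028 in WT. DCN averaged 1051 and 166 there. PDGFRA and PDGFRB were not called in either comparison. The 9 noradrenergic markers summed to between 95079 and 103217 in G2, 187635 to 199862 in SCR and 211145 to 226561 in WT, and 7 of 9 were lower in both. Among all genes tested, 15.1% were higher and 11.8% lower in G2/SCR, and 17.7% and 12.2% in G2/WT. The part of these markers in the integrin differences was not tested. Endothelial and epithelial markers summed to at most 59.3 and 150 in any library, with PECAM1, KRT5 and KRT14 listed at 0 in all 8. Schwann cell markers summed to 170 to 594 and blood cell markers to 145 to 302, with SOX10 and CD3E listed at 0 in all 8.

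By the smallest root mean square difference of centred log2 values over the 8 libraries, among 12587 genes, the genes nearest in pattern to ITGB1 were SPDL1 (0.04), FZD6 (0.05) and STIM1 (0.05). Those nearest to ITGA5 were HNMT (0.24), NRP1 (0.39) and CELSR1 (0.41). HNMT averaged 376 ± 25.8 normalized counts in G2, 33.2 ± 11.5 in SCR and 6.33 ± 3.68 in WT (SD, n = 3, 3 and 2).

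Promoter windows of 250 bases before the start were available from RefSeq (GRCh38.p14) for 7 of the 10 genes. The windows of ITGA5 (chr12:54419267-54419516, minus strand) and ITGB1 (chr10:32958231-32958480, minus strand) are shown because they were the 2 of 7 with the letters GGAATG, the core of a TEAD site. Capitals mark GGAATG and the GC box GGGCGG on either strand.
ITGA5: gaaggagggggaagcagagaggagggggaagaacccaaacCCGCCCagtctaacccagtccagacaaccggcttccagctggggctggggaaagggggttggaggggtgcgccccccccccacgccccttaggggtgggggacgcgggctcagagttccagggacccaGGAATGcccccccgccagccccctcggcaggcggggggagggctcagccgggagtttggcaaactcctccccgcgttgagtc
ITGB1: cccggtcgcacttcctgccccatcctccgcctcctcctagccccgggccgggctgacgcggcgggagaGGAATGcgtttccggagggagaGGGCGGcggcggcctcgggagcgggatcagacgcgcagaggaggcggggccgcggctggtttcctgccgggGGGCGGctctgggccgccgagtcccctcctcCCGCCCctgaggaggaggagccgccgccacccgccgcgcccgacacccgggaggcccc
GGAATG stood in 11.9% of all 35116 windows. GGGCGG was found in 3 of 7 windows and in 42.6% of all, and CACCTG, an E-box, in 1 of 7, that of ITGA6, and in 17.5% of all. The AP-1 letters TGANTCA were in 0 of 7 and in 6.57% of all. When the windows were extended to 50 bases past the start, a choice made after a match was seen to span the start of ITGA5, TGANTCA was in 1 of 7 and in 7.71% of all. Both strands were searched, no motif overlapped another in the windows shown, and a match is a description of letters, not of binding.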

How the data were processed

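PolyA-selected, stranded libraries of 8 SH-SY5Y samples were sequenced. Per the labels and the study's methods, the authors aligned reads to hg38 with STAR, counted them per gene of the FAST DB annotation with featureCounts of Subread 1.5.0 and normalized the counts with DESeq2; the deposited values are these normalized counts, a signal per gene and library. The authors' own fold changes and p-values were not used. Dividing each column by its smallest step gave whole counts for 100.00% of values (tolerance 0.05). Of the small recovered counts, 66.9% to 71.3% per library were multiples of 3, so that a step may not be 1 read and the count models may overstate the depth. The step of WT replicate 2, 0.9928, is too near 1 for this to be a check, so count models used G2 and SCR only.

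Genes whose mean reached 10 were tested with limma 3.58.1 (R 4.3.3; trend on the mean) on log2(normalized count + 1), 1 fit over all 8 libraries, which understates the change of low genes. Calls needed a 1.5-fold difference and an unadjusted p no larger than 0.05, as in the study's methods, with Benjamini-Hochberg adjustment over all genes tested given beside them. The files hold normalized values, so edgeR 4.0.16 and DESeq2 1.42.0 were alternatives on recovered counts. The members and lists were chosen with earlier results of these data known. Named genes were the 10 members, other integrin genes with a mean of at least 100, the top 3 by G2/SCR p from every list, the 3 genes nearest in pattern to ITGB1 and to ITGA5, antisense and overlapping genes of members, and PRPF40B. LAMA5, LAMC3, FERMT1 and FERMT2 were named after their values were seen. Levels per kb used merged exon lengths from GENCODE, with PELO exons in the length of ITGA1. Same-numbered libraries of different lines did not deviate together, with correlations between -0.03 and 0.04.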

Additional observations from a re-analysis of the deposited data

How the results depend on the processing

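Over 500 values of the 10 integrin genes under the alternatives, 490 kept their direction and their side of the thresholds. In G2/SCR all 10 were called under every alternative, DESeq2 and edgeR on recovered counts included, other than a fold change of 2 or more, where 7 were. Scaled to the same total, ITGAV and ITGB1 turned to 0.05 and 0.10 in SCR/WT, ITGAE turned to 0.06 in G2/WT, the median of all genes moved to 0.19 in G2/WT and 0.29 in SCR/WT, and the share of calls that were higher went from 59.3% to 75.8% and from 65.6% to 90.7% (G2/SCR from 56.2% to 47.4%). With ribosomal RNA genes left out of that total, an alternative chosen after seeing the data, ITGB1 was at 0.04 in SCR/WT. Leaving out 1 library at a time, ITGAV in SCR/WT ran from -0.58 to 0.12, ITGAE in G2/WT from -0.26 to 0.02, ITGA9-AS1 in G2/WT from -0.16 to 0.62, other subunits called in SCR/WT from 1 to 4, and integrin genes specific to G2 from 2 to 4. At a mean of at least 100, fewer genes were tested, and 3088, 3633 and 1723 were called in G2/SCR, G2/WT and SCR/WT, with 1, 2 and 1 other subunits. At that fold change 2951, 3176 and 1491 were called, with 3 integrin genes in SCR/WT and 4 specific to G2. Other subunits called in SCR/WT numbered 1 under same-total scaling with or without ribosomal RNA genes, with only the compared lines in the fit, at an adjusted p of at most 0.05 and at a fold change of at least 2. The cause was not tested. The replicate number as a block gave 5059, 5644 and 3057 called genes, against 5088, 5657 and 3097 without it, and changed no call of the 10 integrin genes. The same-number libraries share only a number. With 2 WT libraries, values against WT are the least certain, and ITGA5 in WT lies near the counting limit.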

Other observations

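Of the 17 nearest tested neighbours of the integrin genes that were not integrin genes themselves, 3 were higher and 3 lower in G2/SCR, and 4 were higher and 2 lower in G2/WT. Over all genes tested, 15.1% were higher and 11.8% lower in G2/SCR, and 17.7% and 12.2% in G2/WT. NRP1, 219262 bases from ITGB1, was higher by 3.03 and 5.57, while GTSF1, next to ITGA5, was lower, at -2.45 and -2.17. MOCS2, 900 bases from ITGA2, had log2 fold changes of 0.55 and 0.45, neither called. These genes were named after their values were seen.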
